A study of Arabidopsis thaliana with 19 samples.

Results

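Paternal-excess and maternal-excess triploid Arabidopsis thaliana seedlings both carry 3 genome copies, and they differ in the parent that gave the extra copy. The comparison set 5 paternal-excess triploids, labelled 3x(p), against 5 maternal-excess triploids, labelled 3x(m), which are 10 of the 19 seedlings of an autopolyploid series. The other 9 were 5 tetraploids (4x) and 4 diploids (2x), and they entered the fit only to share the estimate of the spread between seedlings. Each value comes from a single seedling aged 2 weeks whose RNA was hybridised to its own Affymetrix ATH1 array, and the plants grew in a chamber on Murashige and Skoog medium. No treatment was given in the labels, and the accession of the plants and the crosses that made the triploids are not given in the sources used here. Other differences between the parent plants therefore cannot be told apart from the parent of the extra copy. On each array 22810 probe sets were measured, and the 22746 that are not array controls were tested.

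In a plant the maternal and paternal genomes are not always equivalent. Imprinted genes are expressed mainly from the copy of 1 parent, which in flowering plants has been studied chiefly in the endosperm, the seed tissue that feeds the embryo, where seeds from crosses of unequal ploidy differ in growth according to which parent supplied the excess. The marks behind imprinting are DNA methylation, its removal by glycosylases such as DME, and histone methylation by Polycomb complexes. Seedlings hold no endosperm, and Arabidopsis inherits its plastids and mitochondria through the mother. The reciprocal triploids address whether transcript levels of vegetative tissue depend on the parent of the extra genome.

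The deposited values are on a log2 scale and were brought to 1 distribution over the arrays, so a difference is relative to the rest of the transcriptome and not an amount per cell. In whole seedlings, fewer cells of a type and less RNA per cell cannot be told apart. Differences are given as 3x(p) minus 3x(m), so that a positive value means higher in the paternal-excess seedlings, with the standard error (SE) or 95% interval of the fit and the Benjamini-Hochberg adjusted p of limma over all probe sets. Seedling values are log2 expression levels. Of the tissue markers, the root beta-glucosidase gene PYK10 was between 12.35 and 12.49 in 3x(p) and between 12.17 and 12.59 in 3x(m), and RCA, the gene for Rubisco activase of leaves, averaged 13.82 ± 0.10 in 3x(p) and 13.82 ± 0.06 in 3x(m) (SD, n = 5 each). The other 3 measured root markers, XTH26, EXPA7 and EXPA18, had positive differences, and the median over the 4 was 0.46, or 0.14 without the seedling 3x(m) 4.

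One seedling, 3x(m) 4, stood apart from all others and touched many of the values below. Its root mean square distance from the mean of the rest of its group was 0.554, against 0.209 to 0.379 for the other 18 seedlings. Genes on chromosome 4 stood 0.127 higher in it than genes of the nuclear chromosomes as a whole, while this shift lay between −0.0123 and −0.00212 in the other 9 triploids. The 3′ minus 5′ difference of the actin control probe sets, a measure of RNA integrity, was −0.688 in it, within the −0.744 to −0.388 of the 3x(p) seedlings. That of the GAPDH control, −0.139, was likewise within the −0.237 to −0.0177 of 3x(p), while that of the ubiquitin control, 0.0722, was above the −0.188 to 0.0304 of the other 9 triploids. The part of either in the differences was not tested. Every main count is therefore given with and without this seedling.

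The seedlings of reciprocal triploids differed little. Of the 22746 probe sets, 1 passed at an adjusted p under 0.05 (0.0044%), and it was higher in 3x(p). At an unadjusted p under 0.05 there were 1386 (6.09%), of which 673 were higher (2.96%) and 713 lower (3.13%) in 3x(p), where 1137.3 would be under that p if all p-values were evenly spread. The 5 and 5 seedlings did not overlap in 169 probe sets (0.743%), with 3x(p) above 3x(m) in 81 (0.356%) and below it in 88 (0.387%). Without 3x(m) 4, 1 probe set passed, 1262 had an unadjusted p under 0.05 (5.55%) and 334 did not overlap (1.47%). Fewer seedlings in a group separate more easily, so the rise from 169 to 334 is not a sign of more differences. The share that would separate with no difference between the groups was not computed. With only the 10 triploid arrays in the fit, 0 passed by limma and 936 had an unadjusted p under 0.05 (4.12%).

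The fit gave narrow intervals for most probe sets. The median SE of the difference was 0.110, and the median size of the difference was 0.0858. For 97.0% of the probe sets the 95% interval lay inside a 2-fold change in either direction, and for 86.0% inside a 1.5-fold change. The median half-width of that interval was 0.231. Both shares include the dimmest 30% of probe sets by mean level, where a narrow interval cannot decide whether a transcript changed. The median SD over probe sets was 0.175 in 3x(p) and 0.179 in 3x(m), and 0.148 in 3x(m) without seedling 4. In 2x and 4x, which share the estimate of the spread, it was 0.152 and 0.146. These are below the values of both triploid groups with all seedlings, so the shared estimate can make triploid intervals too narrow.

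**Figure D1:**
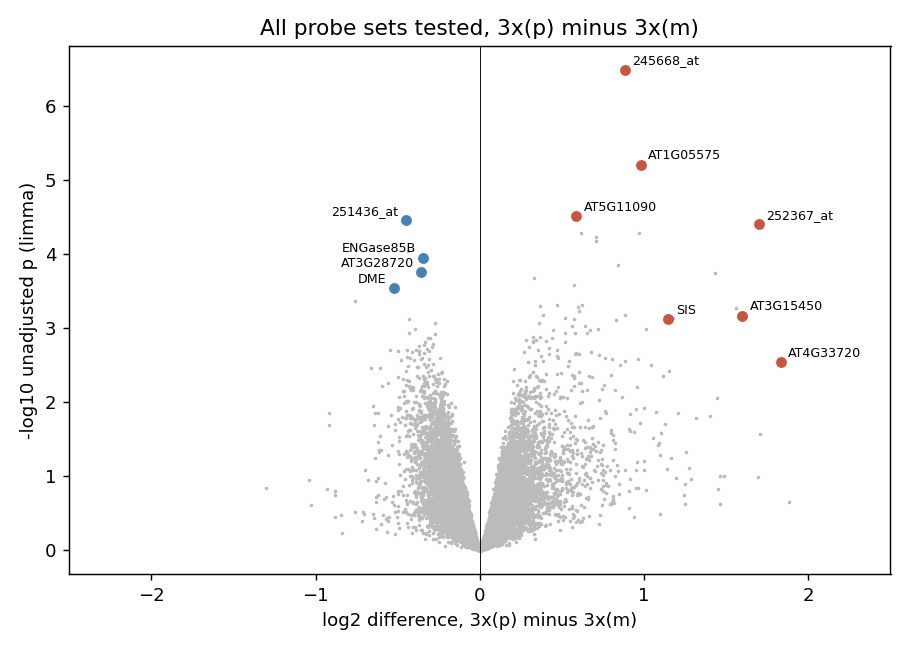
Each point is 1 of the 22746 probe sets tested, with the log2 difference 3x(p) minus 3x(m) on the horizontal axis and −log10 of limma's unadjusted p on the vertical axis; labelled points are probe sets described in the text. 245668_at stands above all others at a difference of 0.88, and the far right holds more points than the far left.

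The probe set that passed, 245668_at, is not listed in the platform annotation used here and has no gene name in this text. It read 6.07, 5.82, 5.98, 5.63 and 5.82 in the 3x(p) seedlings, against 4.98, 5.11, 4.81, 5.18 and 4.83 in the 3x(m) seedlings. The lowest 3x(p) seedling was above the highest 3x(m) seedling, and seedling 3x(m) 4 had the highest of the 3x(m) values. The level rose by 0.88 (SE 0.114, 95% interval 0.645 to 1.12), a 1.84-fold difference (limma, adjusted p = 0.00731). It averaged 4.60 ± 0.14 in 2x (SD, n = 4) and 5.34 ± 0.23 in 4x (SD, n = 5), so that the 3x(m) mean lay between the 2x and 4x means and the 3x(p) mean above both. It passed in each of the 19 fits that left out 1 seedling, with adjusted p-values between 0.00259 and 0.0434, and without 3x(m) 4 the difference was 0.93 (adjusted p = 0.00706). With only the triploids in the fit the adjusted p was 0.0867.

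The nearest named gene was AT1G05575 on chromosome 1, a small protein of unknown function known to respond to low oxygen. Its levels were 5.09, 5.25, 5.42, 5.20 and 5.44 in 3x(p), against 4.27, 4.53, 3.86, 4.43 and 4.42 in 3x(m). Every 3x(p) seedling was above every 3x(m) seedling. The difference was 0.98 (SE 0.157, limma, adjusted p = 0.0698), which did not pass, and it did pass in 4 of the 19 fits without 1 seedling. The 2x and 4x means were 4.10 ± 0.27 (SD, n = 4) and 4.61 ± 0.33 (SD, n = 5).

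AT3G15450, a gene of the aluminium-induced protein family whose transcript is repressed by sugar, had the largest difference among single-gene probe sets without overlap. It read 9.31, 9.75, 10.68, 9.63 and 10.05 in 3x(p), against 7.85, 9.16, 8.41, 8.50 and 7.51 in 3x(m), and the lowest 3x(p) seedling was only just above the highest 3x(m) seedling. The difference of 1.60 was 3.03-fold, with an SE of 0.391 that left it short of the test (adjusted p = 0.534). Its mean was 6.51 ± 1.05 in 2x and 9.04 ± 0.48 in 4x, so the 2x mean was below both triploid means. Among unnamed probe sets 252367_at also had no overlap, at 7.34, 7.74, 8.19, 8.05 and 7.57 in 3x(p) and 5.64, 6.63, 5.82, 6.94 and 5.36 in 3x(m), a difference of 1.70 (SE 0.316, adjusted p = 0.167). It averaged 5.00 ± 0.55 in 2x and 8.22 ± 0.57 in 4x.

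Further genes were higher in 3x(p) seedlings without passing. AT5G11090, coding for a serine-rich protein, read 8.81, 8.57, 8.45, 8.42 and 8.39 in 3x(p), against 8.21, 7.72, 7.91, 7.91 and 7.95 in 3x(m). The groups did not overlap, and the difference was 0.59 (SE 0.107, adjusted p = 0.167). SIS, a related serine-rich gene named for its induction by salt, ranged from 8.81 to 10.34 in 3x(p) and from 7.65 to 9.16 in 3x(m). Its groups overlapped, and its difference of 1.15 was 0.92 without 3x(m) 4, the lowest seedling. AT1G02660, the gene of a plastid lipase, had values of 5.56 to 6.44 in 3x(p) and 4.75 to 5.80 in 3x(m), a difference of 0.84.

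Of the 12 single-gene probe sets with the smallest p among those higher in 3x(p), 6 did not overlap between the groups, and the differences ran from 0.37 to 1.60 with adjusted p-values from 0.0698 to 0.575. Over all probe sets 0.356% were higher without overlap. Picking by p on the same seedlings favours separation, so the count of 6 is a description. Besides those named above, groups without overlap were found in AT3G56880, which codes for a VQ-motif protein (9.05 to 9.56 in 3x(p), 8.34 to 8.92 in 3x(m), difference 0.62). They were also found in the MYB-type transcription factor gene AT4G37180 (8.21 to 8.68 in 3x(p), 7.86 to 8.12 in 3x(m), difference 0.37). AT1G56220, of the dormancy- and auxin-associated family, had 10.98 to 11.59 in 3x(p) and 10.03 to 10.98 in 3x(m), and here the groups only just separated. The remaining members were AT5G24890 (0.57), the oxygenase gene AT2G36690 (0.88), the RING-finger gene AT5G55970 (0.83) and AT1G03610 (0.64), and in all 4 the groups overlapped. Larger differences without overlap, at higher p, were those of AT5G03230 (0.96), AT3G15630 (0.80) and the acylhydrolase gene DLAH (0.65), and of these AT5G03230 had 7.58 in 3x(m) 4 and at least 8.89 in the other 3x(m) seedlings.

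Genes lower in 3x(p) differed by less. ENGase85B, which codes for an endo-beta-N-acetylglucosaminidase that trims sugar chains from proteins, read 4.17, 4.32, 4.28, 4.41 and 4.36 in 3x(p), against 4.60, 4.74, 4.59, 4.78 and 4.56 in 3x(m). No seedlings overlapped, and the difference was −0.34 (SE 0.0704, adjusted p = 0.229). AT3G28720 read 7.11, 7.15, 7.40, 7.35 and 7.36 in 3x(p) and 7.60, 7.63, 7.69, 7.54 and 7.70 in 3x(m). Its groups were likewise apart, with a difference of −0.36 (SE 0.076, adjusted p = 0.292). Neither passed the test.

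DME codes for the DNA glycosylase that removes methylated cytosines and is required for imprinting in the endosperm. One of its probe sets, 250836_at, read 5.17, 5.45, 5.84, 5.56 and 5.50 in 3x(p), against 6.03, 6.14, 5.88, 6.19 and 5.91 in 3x(m). All 3x(p) seedlings were below all 3x(m) seedlings, though 3x(p) 3 only just, and the difference was −0.52 (SE 0.118, adjusted p = 0.383). The other DME probe sets did not show this: 250834_at averaged 4.08 ± 0.16 in 3x(p) and 4.04 ± 0.16 in 3x(m), and 250835_at averaged 4.54 ± 0.31 in 3x(p) and 4.52 ± 0.16 in 3x(m) (SD, n = 5 each). Their differences of 0.04 and 0.02 had 95% intervals of −0.250 to 0.321 and −0.250 to 0.285, and both turned negative in some fits without 1 seedling, down to −0.01 and −0.08. The DME probe sets thus gave different results. However, 250834_at read near 4.07, the mean level that bounds the dimmest 30% of probe sets, and 250835_at not far above it. Probe sets that dim cannot decide whether the transcript changed, so they do not contradict the brighter 250836_at.

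The other genes with the smallest p among those lower in 3x(p) did not pass either. AT5G12400, with PHD and DDT domains, differed by −0.31, AT5G55040, with a bromodomain, by −0.33, and HAT3.1, a homeodomain gene with a PHD finger, by −0.34, and in all 3 the groups overlapped. IAGLU, a glucosyltransferase gene acting on the auxin indole-3-acetate, read 7.92 to 8.34 in 3x(p) and 8.16 to 8.94 in 3x(m). The single 3x(m) seedling inside the 3x(p) range was 3x(m) 4, without which the difference was −0.54 (adjusted p = 0.112) instead of −0.43 (adjusted p = 0.578). QKY, a membrane protein gene of plasmodesmata, differed by −0.28 and AT5G17270 by −0.55, both with overlap. AT1G09900, for a pentatricopeptide repeat protein, differed by −0.37, the DnaJ-protein gene AT1G74250 by −0.32 and the kinesin gene AT5G66310 by −0.44, with no overlap in any of them. Over these 12 probe sets adjusted p-values ran from 0.229 to 0.616 and 6 did not overlap. Over all probe sets 0.387% were lower without overlap, and these 12 were likewise picked by p. Further genes without overlap were the pentatricopeptide repeat gene AT1G74750 and the WD-repeat gene AT3G27640, each with a difference of −0.40.

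**Figure D2:**
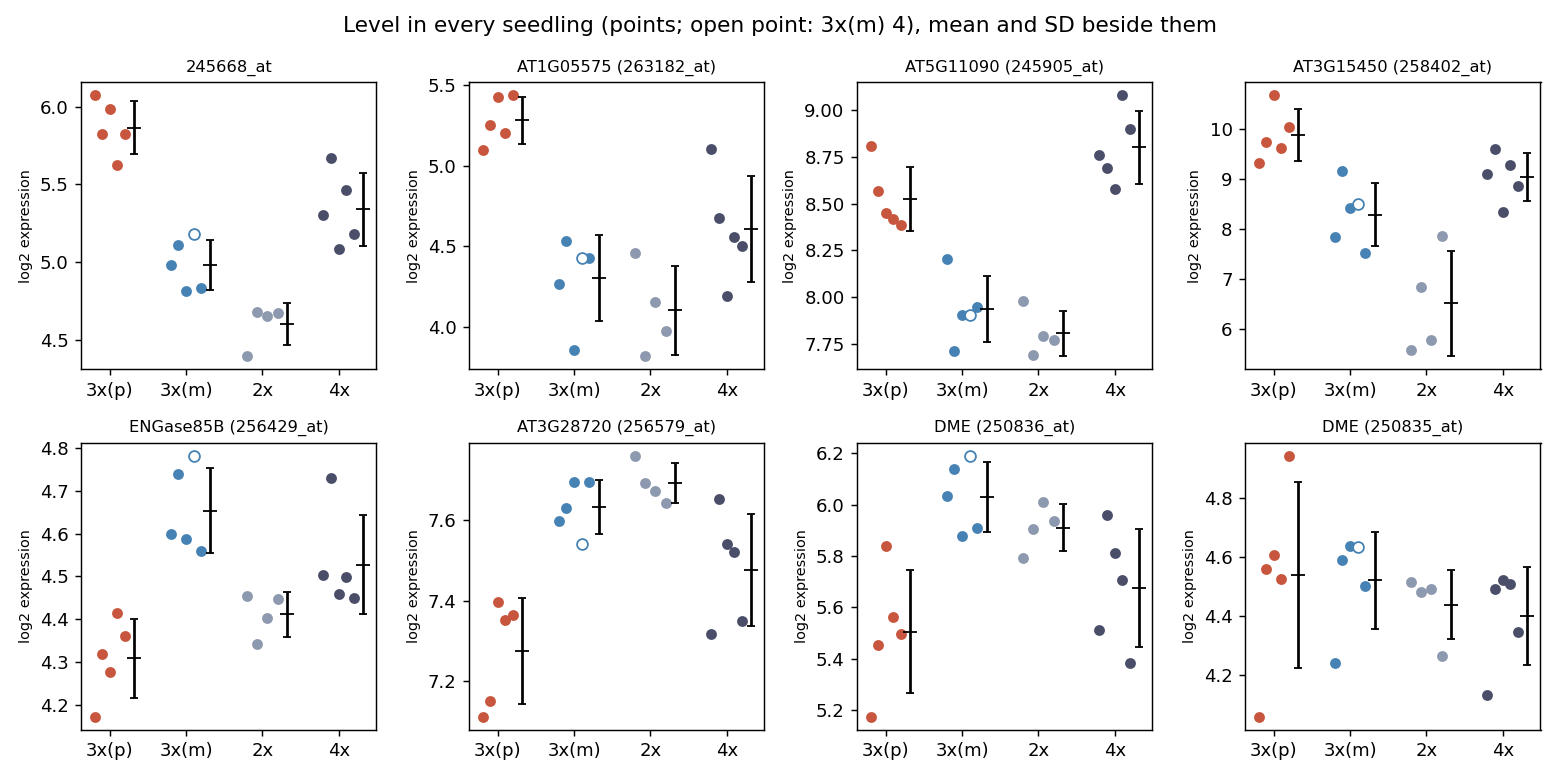
Log2 expression in every seedling (points, open for 3x(m) 4) for 8 probe sets, with the group mean and SD beside the points, for 3x(p), 3x(m), 2x and 4x from left to right. The 3x(p) and 3x(m) points are apart in every panel but that of DME probe set 250835_at, where they average 4.54 in 3x(p) and 4.52 in 3x(m).

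Unnamed probe sets with small p-values lay on both sides. 260266_at had 9.01 to 9.32 in 3x(p) and 8.26 to 8.95 in 3x(m), without overlap, a difference of 0.62 (SE 0.117, adjusted p = 0.167). 251436_at read 5.49, 5.64, 5.83, 5.47 and 5.51 in 3x(p), against 5.97, 6.14, 6.20, 5.83 and 6.07 in 3x(m), a difference of −0.45 (SE 0.0829, adjusted p = 0.167). Only 3x(p) 3 and 3x(m) 4 met, and without 3x(m) 4 the difference was −0.50 (adjusted p = 0.0633). 265531_at differed by −0.43 with no overlap and 256459_at by −0.76 with overlap, and neither passed.

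Large differences ran mostly 1 way. At least 2-fold apart were 41 probe sets higher and 3 lower in 3x(p), and at least 1.5-fold apart were 216 higher and 41 lower. Much of this came with the seedling that stood apart: 3x(m) 4 was the lowest of all 10 triploid seedlings in 32 of the 41 and in 161 of the 216, and the highest in 3 of 3 and in 28 of 41 of those lower in 3x(p). Without it 16 probe sets were at least 2-fold higher and 6 lower, and 126 were at least 1.5-fold higher and 34 lower. Of the 41, 10 stayed past 2-fold without it, and of the 216, 83 stayed past 1.5-fold. The count of at least 2-fold higher ones was 75 without 3x(m) 3, 69 without 3x(m) 5, 68 without 3x(p) 3 and 66 without 3x(p) 5, and the count of lower ones was 6 without 3x(m) 2, 18 without 3x(m) 3, 9 without 3x(m) 5, 7 without 3x(p) 3, 25 without 3x(p) 5 and 1 without 3x(p) 2 or 3x(p) 4. At least 1.5-fold lower ones numbered 76 without 3x(m) 2, 80 without 3x(m) 3, 67 without 3x(m) 5, 66 without 3x(p) 3 and 91 without 3x(p) 5. The excess of higher ones over lower ones was present in every omission, though its size was not stable.

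**Figure D3:**
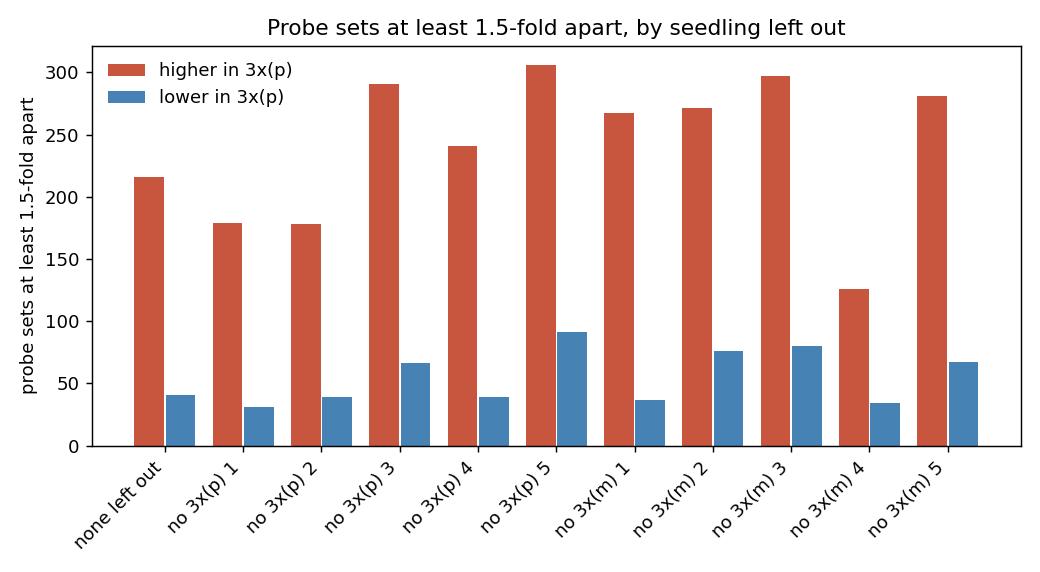
Bars count the probe sets whose group means were at least 1.5-fold apart, higher (left bar) or lower (right bar) in 3x(p), with none or 1 of the 10 triploid seedlings left out. The count of higher ones runs from 126 without 3x(m) 4 to 306 without 3x(p) 5, above the count of lower ones each time.

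Of the 41 probe sets at least 2-fold higher in 3x(p), 17 match a single gene, and none passed the test. They were picked by their size, so their values are a description. AT4G33720, of the family of pathogenesis-related secreted proteins, had the largest difference of 1.83 and did not rest on 3x(m) 4: it read 7.68, 8.43, 5.59, 7.59 and 6.59 in 3x(p), against 4.83, 4.99, 6.08, 5.36 and 5.45 in 3x(m). The groups overlapped only through 3x(p) 3 and 3x(m) 3. Its SE was 0.532 and its adjusted p 0.628, and it averaged 6.88 ± 0.94 in 2x and 9.17 ± 1.05 in 4x.

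In many of these genes 3x(m) 4 was far below the rest of its group. AT1G50060, of the same secreted protein family, read 8.07, 9.29, 8.76, 8.29 and 8.78 in 3x(p), against 7.57, 7.29, 9.01, 3.29 and 7.49 in 3x(m). AT1G52070 and AT1G52060, which code for jacalin-type lectins, read 3.53 and 3.74 in 3x(m) 4, while the other 3x(m) seedlings had at least 8.73 and at least 7.59. AT5G54370 and AT5G60530, of a family related to late embryogenesis abundant proteins, had 3.60 and 3.34 in that seedling. For these 5 genes the difference was 1.14 to 1.70 with all seedlings and 0.30 to 0.79 without 3x(m) 4. The 4 measured root markers moved with them in part. XTH26, a xyloglucan endotransglucosylase gene of root hairs, read 6.62, 7.24, 7.10, 6.13 and 7.92 in 3x(p) and 4.70, 6.15, 5.41, 3.98 and 7.53 in 3x(m), and the root hair expansin genes EXPA7 and EXPA18 were also lowest in 3x(m) 4, at 5.04 and 5.45. PYK10 was not, at 12.59 in that seedling. The median deviation of the 4 markers from their mean over all seedlings ranged from −0.38 to 0.46 in 3x(p) and from −1.65 in 3x(m) 4 to 0.72 in 3x(m), and its part in these differences was not tested.

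Further genes of the 17 were also lowest in 3x(m) 4. AT3G02480 and AT3G17520, which code for late embryogenesis abundant proteins, had values of 3.50 and 3.11 in 3x(m) 4. The other 3x(m) seedlings had at least 9.15 and 6.01. Their differences of 1.70 and 1.10 were 0.40 and 0.15 without that seedling. PUB19, a ubiquitin ligase gene of drought responses, differed by 1.17 with all seedlings and 0.55 without 3x(m) 4, and the drought-induced linker histone gene HIS1-3 by 1.13 and 0.68. AT2G05540, for a glycine-rich protein, differed by 1.01 and 0.30. The 3x(p) seedlings also varied here: seedlings 3x(p) 3 and 3x(p) 5 were the lowest pair of their group for AT3G02480, AT3G17520, PUB19, HIS1-3 and AT2G05540. The other members, less tied to 1 seedling, were SIS and AT3G15450 above, IAA29 (1.15 with all and 0.92 without 3x(m) 4), AT4G27450 (1.31 and 0.95), XTH26 (1.45 and 1.05) and AT1G22890 (1.04 and 0.92).

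**Figure D4:**
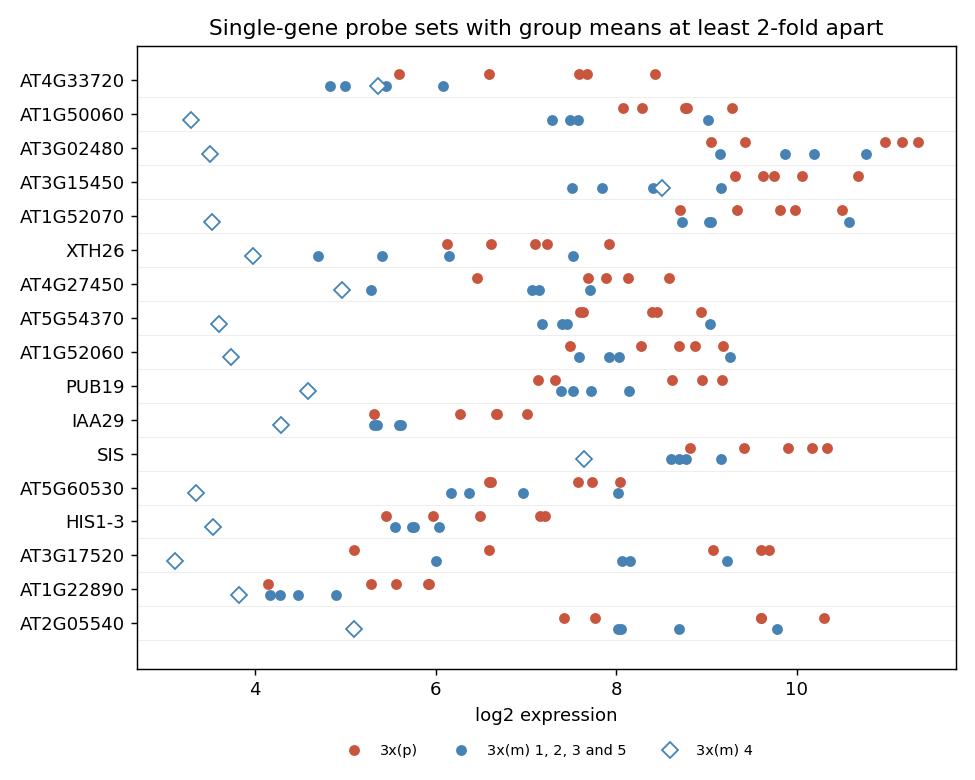
Log2 expression (horizontal axis) of the 17 single-gene probe sets with group means at least 2-fold apart, with 3x(p) seedlings above the 3x(m) seedlings in each row and 3x(m) 4 as an open diamond. The diamond is the lowest point of every row except those of AT4G33720 and AT3G15450.

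Gene groups are given by the count of measured genes, the sign of their differences and the median, beside which all probe sets tested had a median difference of −0.00177 and a positive difference in 49.4%. The background at an unadjusted p under 0.05 was 2.96% higher and 3.13% lower. No member of any group passed over all probe sets. Many loci of the lists have no single-gene probe set in the annotation used here and were not analysed here.

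Imprinted genes and the machinery of imprinting were thinly covered. Of 17 loci listed as imprinted in endosperm, 3 were measured. AGL28, a MADS-box gene, had 2.94 to 3.32 in 3x(p) and 2.85 to 3.22 in 3x(m), near the bottom of the scale, with a difference of 0.09. MPC, a gene related to poly(A)-binding proteins, had 5.62 to 5.81 in 3x(p) and 5.62 to 6.08 in 3x(m), a difference of −0.10 (95% interval −0.299 to 0.099). AT3G23060 had 3.14 to 3.42 in 3x(p) and 3.19 to 3.61 in 3x(m), a difference of −0.05 that was 0.03 without 3x(m) 2. All 3 overlapped, and the interval of MPC excludes a change of 1.5-fold. AGL28 and AT3G23060 read below 4.07, the mean level that bounds the dimmest 30% of probe sets. At such levels a narrow interval cannot decide whether a transcript changed. DME was the 1 measured gene of 32 loci of the DNA methylation list, entered by its brightest probe set. LDL2, a gene of the histone demethylase family, was the 1 measured of 18 Polycomb and histone demethylation loci, with a difference of −0.18 (adjusted p = 0.855).

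Organelle genes, which come through the mother, had mostly negative differences of small size. Of 69 plastid-encoded genes 17 had a positive and 52 a negative difference, with a median of −0.07, and −0.05 without 3x(m) 4. Leaving out other single seedlings gave medians between −0.157 without 3x(m) 5 and −0.0227 without 3x(p) 5. None had an unadjusted p under 0.05 (0 higher and 0 lower by limma), and 0 passed. The ribosomal protein gene rpl14 had the lowest difference, −0.63. The photosynthesis genes ndhG and psaC, which had the smallest p of the list, differed by −0.30 (SE 0.149) and −0.24 (SE 0.127), and ndhG ranged from 4.85 to 5.32 in 3x(p) and from 4.94 to 5.93 in 3x(m). The median deviation of the list in each seedling, from the mean over all seedlings, ran from −0.21 to 0.31 in 3x(p) and from −0.22 to 0.24 in 3x(m), so the seedlings of the groups covered the same span. Of 16 mitochondrial genes 6 had a positive and 10 a negative difference (median −0.07, and −0.22 over fewer genes without dim probe sets). Those with an unadjusted p under 0.05 by limma were 1 higher, nad7 of respiratory complex I with a difference of 0.21, and 1 lower, ccb452 of cytochrome c assembly with −0.32, each overlapping between the groups. The cytochrome oxidase gene cox1 was the 1 without overlap, lower in 3x(p) with a difference of −0.34 (unadjusted p = 0.148 by limma). Nuclear photosynthesis genes were 6 positive and 2 negative (median 0.07), led by PSBY and PSAE-1 of the photosystems at 0.10 and 0.08.

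The dark and sugar starvation list stood highest, with 3 measured genes of 18 loci, all positive and a median of 0.76, or 0.69 without 3x(m) 4. AT3G15450 is described above. AT2G20670 read 9.74, 9.57, 9.88, 9.51 and 8.86 in 3x(p), against 8.71, 9.42, 8.86, 8.46 and 8.31 in 3x(m). The groups overlapped through 3x(p) 5, and the difference was 0.76 (SE 0.277, adjusted p = 0.751). APL3, a starch synthesis gene known to be induced rather than repressed by sugar, differed by 0.11, and this was −0.24 without 3x(p) 5 and 0.51 without 3x(m) 4, the highest seedlings of their groups at 7.89 and 7.95. The seedling medians of the list ran from 0.78 to 1.39 in 3x(p) and from −0.60 to 0.63 in 3x(m), with no overlap. The list was assembled with these results known, and its position is not independent support.

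Low oxygen genes had differences of both signs. Of 17 measured of 36 loci, 8 had a positive and 9 a negative difference with a median of −0.03. Those with an unadjusted p under 0.05 were 4, all higher in 3x(p) by limma, against a background of 2.96%. They were AT1G05575, AT1G33055 (4.09 to 5.25 in 3x(p), 3.67 to 4.12 in 3x(m), difference 0.67), AT3G10020 (8.35 to 9.39 in 3x(p), 7.94 to 8.37 in 3x(m), difference 0.68) and AT4G27450 (1.31). The fermentation gene PDC2, of pyruvate decarboxylase, differed by −0.13. AT3G10020 had 7.02 ± 0.41 in 2x, below both triploids. This list too was chosen with earlier results of these data known, and the count of 4 is not independent support.

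Stress groups depended on the seedlings that stood apart. All 4 measured genes of the cold and abscisic acid list were positive, with a median of 0.44, which was 0.17 without 3x(m) 4. COR15A, for a chloroplast protein of freezing tolerance, read 10.04, 9.80, 7.85, 9.09 and 8.76 in 3x(p), against 8.47, 8.32, 9.23, 5.79 and 8.98 in 3x(m), and its difference of 0.95 was 0.36 without 3x(m) 4. COR15B (0.45), the dehydrin gene COR47 (0.41) and the dehydrin gene LTI30 (0.42) overlapped likewise, and COR47 turned to −0.06 without that seedling. Among 4 touch and wounding genes, STZ and WRKY53, transcription factor genes, differed by 0.62 and 0.43, and the calmodulin-like genes CML38 and CML37 by −0.27 and −0.05. WRKY53 was 7.86 in 3x(p) 5 and 7.26 in 3x(m) 4 and between 4.15 and 5.75 in the other triploids, and its difference was −0.09 without 3x(p) 5. CML38 was 4.77 in 3x(m) 4 and at most 3.38 elsewhere among the triploids, with a difference of 0.05 without that seedling. The median of this list was 0.19, 0.44 without 3x(m) 4 and −0.07 without 3x(p) 5.

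All 7 measured genes of flavonoid and anthocyanin synthesis, of 21 loci, had negative differences, with a median of −0.24. Without 3x(m) 4 the median was −0.13 and 1 of the 7 was positive, and other omissions gave medians between −0.39 without 3x(m) 3 and −0.11 without 3x(p) 4. UGT78D2, a flavonoid glucosyltransferase gene, read 8.39, 8.34, 8.14, 8.41 and 8.52 in 3x(p), against 8.68, 8.85, 8.65, 8.17 and 9.02 in 3x(m). The 3x(m) seedling within the 3x(p) range was 3x(m) 4, and the difference of −0.31 was −0.44 without it (adjusted p = 0.825). UGT78D1, a flavonol rhamnosyltransferase gene, differed by −0.28, the anthocyanin malonyltransferase gene AT5MAT by −0.24, and BAN, for anthocyanidin reductase, by −0.12, all with overlap. Only UGT78D2 had an unadjusted p under 0.05 by limma.

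Auxin, growth and cell division genes had differences of both signs. Of 7 Aux/IAA repressors of auxin signalling 4 were positive, with a median of 0.03. Without dim probe sets the median was 0.61, over fewer genes whose number is not given here. It is not read as a rise of the list, in which IAA29 had the largest difference. IAA29 read 6.67, 6.27, 6.69, 7.01 and 5.32 in 3x(p), against 5.62, 5.35, 5.60, 4.28 and 5.32 in 3x(m). Seedling 3x(p) 5 lay within the 3x(m) values, and the difference of 1.15 had an SE of 0.348 (adjusted p = 0.704). The auxin-conjugating GH3.3 ranged from 5.35 to 5.88 in 3x(p) and from 4.56 to 7.10 in 3x(m), a wider spread in 3x(m), with a difference of −0.38 that was −0.72 without 3x(m) 2 and −0.09 without 3x(m) 3. Of 27 expansin and xyloglucan enzyme genes 15 were positive (median 0.05, and −0.03 without 3x(m) 4), from −0.36 to 1.45 at XTH26. Those with an unadjusted p under 0.05 by limma were 1 higher, XTH26, and 2 lower, EXPA20 and XTH21 with differences of −0.21 and −0.26. Of 13 cell division genes, which are tubulin, Aurora kinase and spindle checkpoint genes, 3 were positive (median −0.08, and 0.07 without 3x(m) 4), with TUA6 at −0.14. Of 7 histone genes 1 was positive, HIS1-3, and the other 6 were not, with HTB2 at −0.33 and the median at −0.10, which was 0.02 without 3x(m) 4.

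Lists with 1 or 2 measured genes gave single values. The iron deficiency regulators BHLH101 and PYE had positive differences of 0.91 and 0.57, but BHLH101 read 8.62, 8.19, 7.35, 8.58 and 6.10 in 3x(p), against 8.22, 7.88, 7.51, 3.86 and 6.82 in 3x(m). Both genes were lowest in 3x(m) 4, and without it the differences were 0.16 and 0.22. FD, a bZIP transcription factor gene of flowering, read 3.68, 3.64, 3.44, 3.46 and 3.63 in 3x(p), against 3.14, 3.40, 3.29, 3.43 and 3.40 in 3x(m), low levels that only just separated, with a difference of 0.24 (adjusted p = 0.734). The flowering regulator AGL24 differed by −0.15 and the clock gene GI by −0.19. SIM, an inhibitor of cell division in endoreduplicating cells, was 5.25 in 3x(m) 4 and at least 6.82 in the other 3x(m) seedlings, and its difference was −0.01, or −0.35 without that seedling. The defensin gene PDF1.2b was 6.74 in 3x(m) 4 and differed by −0.31, or 0.05 without it, and PDF1.2 differed by 0.02. BCAT4, of glucosinolate synthesis, differed by 0.09, the ribosomal protein gene PGY1 by −0.08 and the shoot meristem gene CLV3 by 0.06. None of these passed, and the floral and seed storage markers and the heat shock list had no single-gene probe set in the annotation used here.

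**Figure D5:**
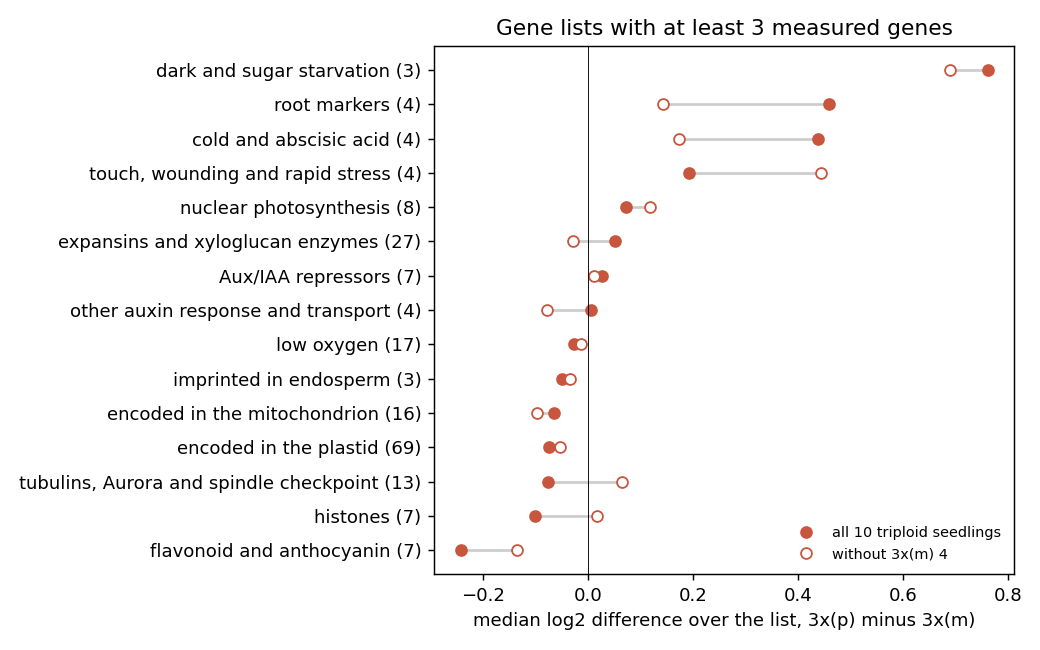
Median log2 difference, 3x(p) minus 3x(m), over each of the 15 lists with at least 3 measured genes, with all 10 triploids (filled) and without 3x(m) 4 (open), and the number of genes in brackets. Dark and sugar starvation genes lie furthest right (0.76) and flavonoid genes furthest left (−0.24), and the root marker and cold lists move most towards 0 when 3x(m) 4 is left out.

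Families were formed afterwards from shared symbols, and of 24 with at least 8 measured genes the 4 with the medians furthest from 0 are described. Autophagy (ATG) genes were positive in 7 of 8 with a median of 0.26, or 0.14 without 3x(m) 4. ATG8C, for a ubiquitin-like protein of the autophagosome, read 8.58, 8.21, 8.24, 8.23 and 8.27 in 3x(p), against 8.04, 8.06, 8.03, 7.76 and 8.02 in 3x(m). Its groups did not overlap, and the difference was 0.32 (SE 0.0853, adjusted p = 0.591). Alpha-expansins (EXPA) were positive in 8 of 10 with a median of 0.20, which was 0.05 without 3x(m) 4. Ubiquitin-specific proteases (UBP) were negative in 10 of 12 with a median of −0.14, or −0.13 without 3x(m) 4, and UBP24 and UBP23 differed by −0.29 and −0.32. Organelle transcript processing genes (OTP) were negative in 6 of 8 with a median of −0.13. No member of these families passed the test.

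By chromosome, the median difference over single-gene probe sets, relative to all nuclear chromosomes, lay between 0.000371 and 0.00602 on chromosomes 1, 2, 3 and 5. On chromosome 4 it was −0.028, and −0.002 without 3x(m) 4. Of the 1962 probe sets of chromosome 4, 38 had an unadjusted p under 0.05 by limma as higher and 81 as lower in 3x(p). Over all probe sets tested the shares were 2.96% higher and 3.13% lower. Among single-gene probe sets, the only ones counted by chromosome, 414 were higher and 379 lower. Chromosomes 1, 2, 3 and 5 held 3451, 2200, 2746 and 3008 of them. There too the higher ones outnumbered the lower ones, at 124 and 95, 66 and 49, 89 and 72, and 96 and 80. The counts by chromosome include 3x(m) 4, whose chromosome 4 genes stood higher, and were not repeated without it. Of the genes of chromosome 4 named here with negative differences, UBP24 had −0.19 without 3x(m) 4, TUA6 −0.05, EXPA20 −0.25 and IAGLU −0.54, of which the first pair is closer to 0 than with all seedlings and the second pair further from it.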

How the data were processed

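The authors deposited log2 expression values per probe set, made with RMA per the submitters' processing notes (background correction, quantile normalization and summary of probes); its version is not given in the sources used here. RNA was extracted with Trizol and a column and labelled with biotin, per the labels' protocols, and each array is 1 seedling. Scanner files were not used here. Quantile normalization shows relative levels only, and the number of arrays limits the precision.

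From 22810 probe sets 64 controls were set aside. The platform annotation gave 1 gene for 13513 probe sets and several for 503, and the other 8794 are unnamed here. Symbols of 13436 were updated through a RefSeq gene table, which also gave chromosomes. No coordinates or sequences are printed.

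The fit used limma (version 3.58.1, run in R 4.3.3): 1 coefficient per group over all 19 arrays, no block, empirical Bayes, two-sided, adjusted over 22746 probe sets and called under 0.05. Named are called probe sets, the 12 single-gene ones per direction with the smallest p, the 5 per direction with the largest difference without overlap, 3 unnamed ones per direction and up to 4 members per list by smallest p. Single genes at least 2-fold apart, up to 2 members per family and genes named beyond this rule were added after values were seen. A gene with several probe sets entered lists by the brightest. The members and lists were chosen with earlier results of these data known.

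Alternatives were only the triploids in the fit, moderation with a trend and robustly, no probe sets from the dimmest 30%, a further quantile normalization, array weights, a replicate block, only 1 probe set for each gene, calls that also need a 1.5-fold difference, and omission of each seedling. The fit was tested on simulated data with independent normal residuals, in which no seedling stood apart. In the same simulated data 50 probe sets were changed 1.5-fold, 50 changed 2-fold and 50 changed 3-fold. The fit recovered 62%, 90% and 98% of them, with 5 false calls. The Benjamini-Hochberg adjustment is easier to pass when many probe sets differ. These shares therefore do not carry over to a comparison with 1 call. Recovery in the real data was not measured. The labels do not say whether replicate numbers mark a shared batch. Python 3.11.15 with matplotlib 3.10.9 made the figures.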

Additional observations from a re-analysis of the deposited data

Results flagged for a closer look

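Within each triploid group of 5 seedlings, the highest and lowest values of the named probe sets, the lists and the chromosome 4 shift were compared with their neighbours. A seedling is listed where its gap to the nearest other value took more than the share of the group's range that Dixon's test allows. There were 25 such cases in 232 checks, of which 16 were in seedling 3x(m) 4 and 8 in 3x(p) seedlings. The rate of about 1 in 20 holds for independent items not picked on these seedlings. Many of these probe sets were named by their differences in the same seedlings, and some are members of the lists. That rate therefore does not apply, and the count is a description.

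Seedling 3x(m) 4 was below the rest of its group for AT3G02480 (3.50), AT1G52070 (3.53), HIS1-3 (3.54), PUB19 (4.59), IAA29 (4.28), COR15A (5.79), COR47 (9.35), AT5G03230 (7.58), AT1G56220 (10.03) and ATG8C (7.76). It was above the rest for CML38 (4.77), CML37 (3.08), APL3 (7.95), AT1G74250 (6.62) and the median deviation of the histone list (0.532). Its chromosome 4 genes had a median shift of 0.125. In the same calculation 3x(p) 3 had a shift of −0.00448 where the other 3x(p) seedlings were tied at 0. The other 3x(m) case was AT3G23060 in 3x(m) 2 (3.61).

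Among the paternal-excess seedlings, 3x(p) 5 was high for WRKY53 (7.86) and for the median deviation of the touch and wounding list (0.959), and low for AT1G09900 (6.39) and ndhG (4.85). Seedling 3x(p) 1 was high for ATG8C (8.58) and low for nad7 (3.55), and 3x(p) 2 was high for DLAH (6.64). The causes of these values were not tested.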

How the results depend on the processing

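The difference of 245668_at was positive in every fit that held it, and its call was lost with only the triploids in the fit (adjusted p = 0.0867), with the replicate block as well (0.704) and without 3x(m) 4 as well (0.102), each with 0 probe sets passing by limma. Of the named probe sets 96 were followed through 29 fits, that of the report included, and 8 of them changed sign in 1 or more; the cause was not tested. With 1 probe set per gene 0 probe sets passed by limma (245668_at has no single gene and is left out there) and 803 had an unadjusted p under 0.05. At least 1.5-fold higher in 3x(p) were then 104 and lower 17, at least 2-fold higher 17 and lower 0, counts that follow from fewer probe sets. With only the triploids in the fit 245668_at had 0.88, the same by construction. With a fold of at least 1.5 required, 122 had an unadjusted p under 0.05. Array weights left 135 higher and 20 lower at 1.5-fold, and 20 higher at 2-fold, and turned PYK10 to 0.000562. Without dim probe sets the median of chromosome 1 was 0.0124, of the mitochondrial list −0.217 and of the Aux/IAA list 0.614, each over fewer probe sets. Without 3x(m) 4 and with only the triploids, chosen after the data were seen, 245668_at had 0.93, 126 were at least 1.5-fold higher, 16 at least 2-fold higher and 6 lower, and DME 250834_at (−0.0121), COR47 (−0.0567), CML38 (0.0503) and PYK10 (0.0275) changed sign.

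Leaving out 1 seedling at a time gave 1 to 4 passing probe sets, 126 to 306 at least 1.5-fold higher and 31 to 91 lower, 16 to 75 at least 2-fold higher and 1 to 25 lower, and 253 to 427 without overlap, which 5 against 4 seedlings reach more easily. AT1G05575 passed in 4 of the 19 omissions, and AT5G24890 and 260266_at in 1. Differences crossed 0 for APL3 (−0.244 to 0.511), AT3G23060 (−0.0913 to 0.0286), CML38 (−0.377 to 0.0503), COR47 (−0.0567 to 0.614), DME 250834_at (−0.0121 to 0.0939) and 250835_at (−0.0826 to 0.137), PYK10 (−0.0761 to 0.0275) and WRKY53 (−0.0928 to 0.909). Chromosome medians ran from 0.00331 to 0.0116 on chromosome 1, from −0.00101 to 0.00995 on 2 and from −0.00398 to 0.00124 on 3.

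The labels give both triploids replicate numbers 1 to 5 and do not say what these mark. Deviations of same-numbered triploid seedlings correlated between −0.357 and 0.435, and 1 of 5 correlated best with its own number. The GAPDH 3′ minus 5′ difference was lowest in replicate 1 of every group (−0.237 in 3x(p), −0.190 in 3x(m), −0.0995 in 2x and −0.232 in 4x). The array median was highest in replicate 1 and lowest in replicate 3 in 2x, 3x(m) and 4x, but not in 3x(p). Whether the numbers mark a shared batch cannot be told from these values. With a replicate block 2 probe sets passed, 245668_at and 258395_at, and with the block and only the triploids 0 passed and 245668_at had a difference of 0.88 (adjusted p = 0.704). Limits of precision are those of 5 seedlings a group: a difference that did not pass was not detected, which does not show that it is absent.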
